A study of Homo sapiens with 4 samples.

Results

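The cytosolic ribosomal protein genes were described in 143B cells with and without knockdown of FTO. The genes were chosen by symbol, as the table rows named RPSA or carrying an RPL or RPS symbol, with the RPS6K kinases left out. Of 84 rows that matched the symbol pattern, 1 was the kinase-like gene RPS6KL1 and was not counted, which left 83 of the 11972 listed genes. The symbol rule itself uses no measured value, but it was chosen with earlier results of these data known. Of the 83 genes, 32 belong to the small subunit and 51 to the large subunit. All 77 canonical proteins with an RPS or RPL symbol were listed, together with 6 paralogs, which are RPL7L1, RPL22L1, RPL26L1, RPL36AL, RPL39L and RPS27L.

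143B is a human osteosarcoma cell line, and FTO is an enzyme that erases N6-methyladenosine marks in messenger RNA. The shFTO group was 143B cells transfected with a plasmid carrying a short hairpin RNA against FTO, and the shCtrl group was 143B cells with a control plasmid. Both groups were grown as stable cells in medium with puromycin, and each had 2 polyadenylated RNA libraries. The labels do not say how many hairpins or clones were used, nor whether the libraries came from separate cultures. The p-values therefore reflect only how far these libraries differ within a group, and that spread may be technical.

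Values are FPKM, a level corrected for transcript length and for the mapped fragments of the library, and read depth is unknown because FPKM carry no counts. Listed values summed to 212531 and 200555 FPKM in the shFTO libraries, against 202725 and 209996 FPKM in the shCtrl libraries. FTO was at 0.268 and 0.242 FPKM in shFTO cells, against 1.14 and 0.665 FPKM in shCtrl cells. The groups did not overlap, where they did not in 42.6% of tested genes. These are low levels, and FTO reached 1 FPKM only in shCtrl replicate 1. It therefore missed the filter of at least 1 FPKM in at least 2 libraries and was not tested. Of 10 mesenchymal and osteosarcoma markers 8 were listed, with vimentin (VIM) between 252.5 and 329 FPKM and the bone transcription factor RUNX2 under 1 FPKM in every library. Of 13 markers of other cell types 1 was listed, the epithelial gene EPCAM, between 2.43 and 4.46 FPKM.

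Each ribosome carries a single copy of most ribosomal proteins, and cells make these proteins in matched amounts from genes scattered over the genome. Their messenger RNAs are among the most abundant in growing cells. Most begin with a cytosine followed by a run of pyrimidines, the terminal oligopyrimidine or TOP start, through which the mTORC1 kinase and the RNA-binding protein LARP1 control how much of each is translated. A translational change of this kind need not show in RNA levels.

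Starts are shown for some of the most abundant members, some that differed most, and the paralogs and parents found in RefSeq. The TOP start is the feature by which this family is best known. The selection leaves out RPL41 and RPL32, and RPL39L and RPL7 had no matched RefSeq start. The sequences are from RefSeq (GRCh38.p14), in which 67 of the 83 genes were found, and each window holds the 15 bases before and the 15 bases from the annotated start. Capitals mark the pyrimidine run from the first transcribed base, and a window without capitals starts with a purine.
RPS12 (chr6:132814554-132814583, plus strand): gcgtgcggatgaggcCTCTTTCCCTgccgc
RPS27 (chr1:153990747-153990776, plus strand): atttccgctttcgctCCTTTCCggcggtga
RPS3A (chr4:151099613-151099642, plus strand): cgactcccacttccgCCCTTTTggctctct
RPL22 (chr1:6199581-6199610, minus strand): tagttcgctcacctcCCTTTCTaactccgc
RPL22L1 (chr3:170870181-170870210, minus strand): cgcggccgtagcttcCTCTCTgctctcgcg
RPL39 (chrX:119791616-119791645, minus strand): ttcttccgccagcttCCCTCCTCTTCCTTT
RPL26 (chr17:8383179-8383208, minus strand): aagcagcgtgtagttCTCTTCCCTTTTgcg
RPL26L1 (chr5:172958714-172958743, plus strand): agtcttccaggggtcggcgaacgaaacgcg
RPL36A (chrX:101390996-101391025, plus strand): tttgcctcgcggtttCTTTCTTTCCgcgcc
RPL36AL (chr14:49620612-49620641, minus strand): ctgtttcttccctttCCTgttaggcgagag
RPL7L1 (chr6:42879601-42879630, plus strand): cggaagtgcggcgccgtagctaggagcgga
RPS27L (chr15:63157463-63157492, minus strand): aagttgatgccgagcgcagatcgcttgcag

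A start with C and a pyrimidine run of at least 5 bases was found in 47 of the 67 matched genes (70.1%), against 1404 of 27305 RefSeq symbols (5.14%) and 610 of 8512 other tested genes (7.17%). RPL26L1, RPL36AL, RPL7L1 and RPS27L had no such run at any annotated start, whereas the parents RPL26, RPL36A and RPS27 did, and RPL22L1 had one as RPL22 did. In the RefSeq window of 250 bases before to 50 bases after the start, each motif was searched on both strands and counted separately. A gene counted if any of its annotated starts had the motif. CCGGAAG was found in 24 of 67 ribosomal protein genes (35.8%), against 23.8% of other tested genes and 12.2% of all RefSeq symbols. TATAAA was found in 6 (8.96%), against 7.65% and 14.0%, and GGGCGG in 39 (58.2%), against 79.8% and 48.3%. These matches describe the windows only.

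The ribosomal protein genes took up 8.23% and 7.56% of the summed FPKM in the shFTO libraries, against 7.84% and 8.60% in the shCtrl libraries. The groups overlapped, with the lowest share in shFTO replicate 2 and the highest in shCtrl replicate 2. The small subunit genes held 3.64% and 3.34% in shFTO libraries, against 3.48% and 3.82% in shCtrl libraries. The large subunit genes held 4.59% and 4.22% in shFTO libraries, against 4.36% and 4.77% in shCtrl libraries, so both subunits followed the same order of libraries.

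Mean levels over the 4 libraries ran between 4.66 and 699 FPKM with a median of 162 FPKM, against a median of 6.60 FPKM over the 10873 genes tested. The 10 highest genes held 29.3% of the family's FPKM. RPS12 was highest, at 748 and 614 FPKM in shFTO libraries, against 667 and 767 FPKM in shCtrl libraries. RPS27 had 623 and 575 FPKM in shFTO libraries, against 559 and 628 FPKM in shCtrl libraries. RPL41, which encodes a very short peptide, had 526 and 486 FPKM in shFTO libraries, against 486 and 541 FPKM in shCtrl libraries. In each of these genes the 2 groups overlapped, and the replicate gap was wider than the distance between group means.

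The lowest members were paralogs. RPS27L had 4.73 and 4.92 FPKM in shFTO libraries, against 3.20 and 5.82 FPKM in shCtrl libraries. RPL7L1 had 19.6 and 21.3 FPKM in shFTO libraries, against 18.8 and 23.9 FPKM in shCtrl libraries, so both genes overlapped between groups. The mean of RPL22L1 was 18.7 FPKM, and RPS29, with 22.3 FPKM, was the lowest gene that is not a paralog. Without the paralogs the highest gene stood 31.4-fold above the lowest. The order of the genes differed little between libraries, with Pearson correlations of log2 values across the 83 genes between 0.987 and 0.994 for the pairs of libraries. This is a description across genes that share libraries and transcript lengths.

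**Figure D1:**
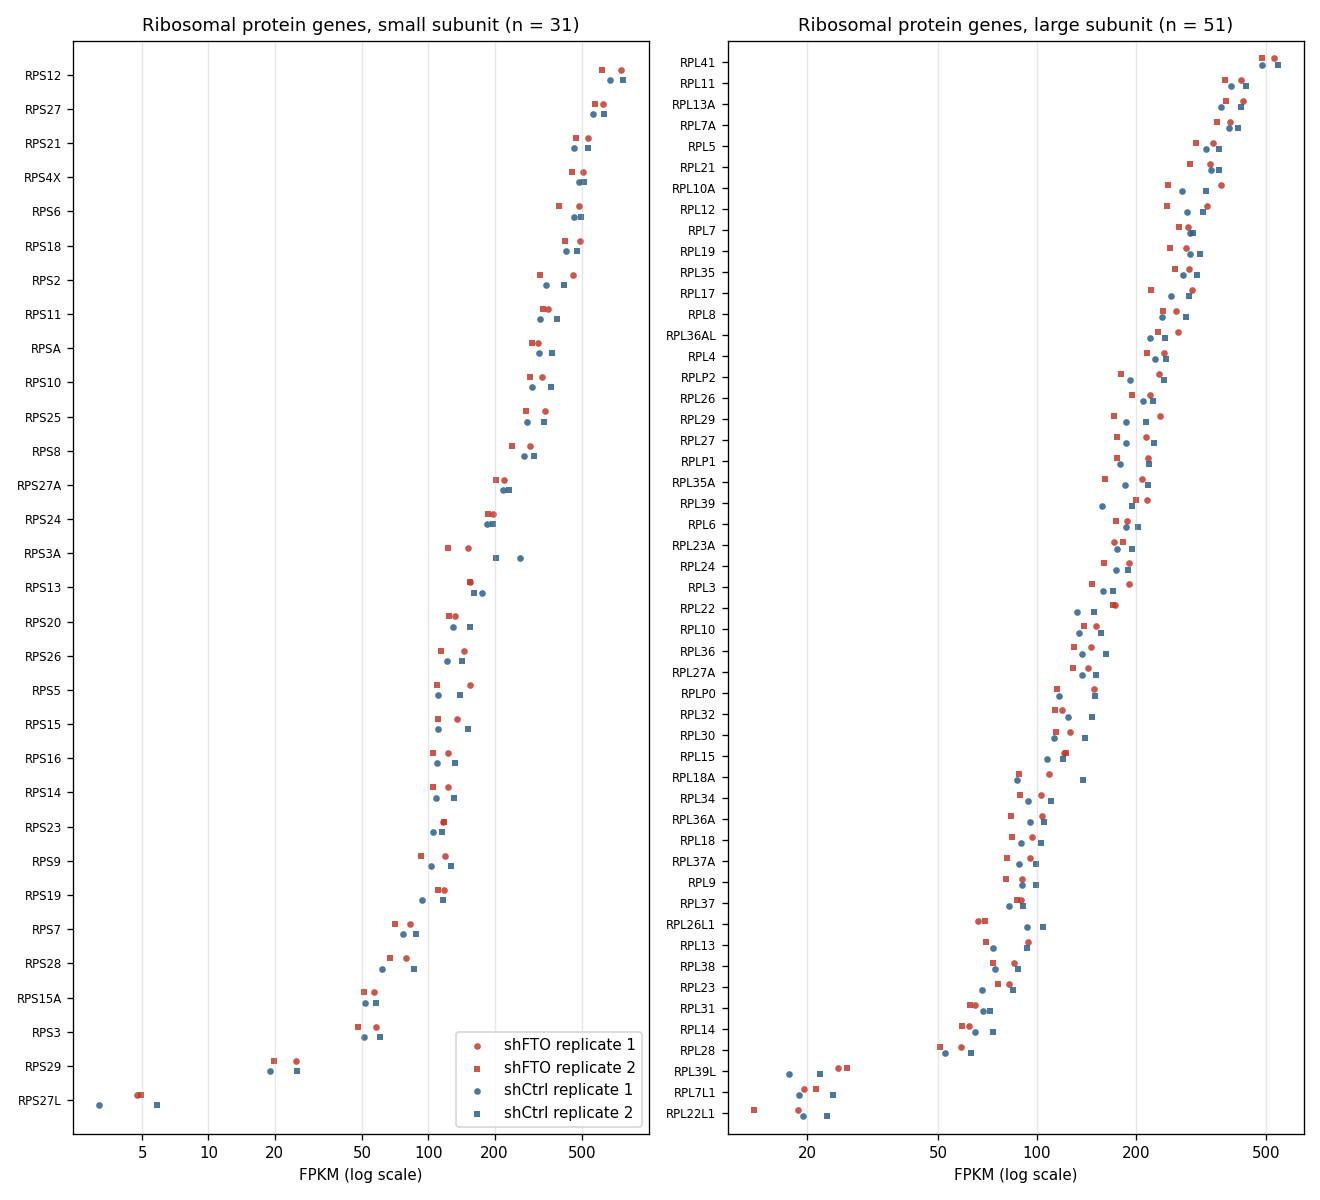
FPKM (log axis) of the ribosomal protein genes in each library, with 1 small subunit gene left out, ordered by mean within the small and the large subunit, with circles for replicate 1 and squares for replicate 2. Most genes show shFTO replicate 2 and shCtrl replicate 1 to the left and the other libraries to the right, with RPS12 at 748 and 614 FPKM in shFTO, against 667 and 767 FPKM in shCtrl.

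No ribosomal protein gene differed between shFTO and shCtrl at a limma adjusted p under 0.05, where 0.0276% of the tested genes did (0.0092% higher and 0.0184% lower in shFTO cells). All 83 genes passed the filter of at least 1 FPKM in at least 2 libraries, and the smallest limma adjusted p among them was 0.288. At an unadjusted limma p under 0.05, 0 were higher in shFTO cells, against 7.11% of tested genes, and 2 were lower, RPS3A and RPL26L1, against 3.74% of tested genes. In these bulk libraries, fewer cells of a kind and less RNA per cell cannot be told apart.

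Differences are given as shFTO minus shCtrl on the log2(FPKM + 1) scale. Their median over the 83 genes was -0.07, against 0.02 over all tested genes, and 61 genes were below 0, where 46.2% of tested genes were. The median was -0.06 for the small subunit and -0.07 for the large subunit. This count depended on scaling and on single libraries. With quantile normalization 40 of 83 differences were above 0 and the median was -0.01, against 22 above 0 as deposited. With median-ratio scaling 10 were above 0 and the median was -0.12. The median was -0.17 without shFTO replicate 1 or without shCtrl replicate 1, 0.04 without shFTO replicate 2 and 0.06 without shCtrl replicate 2, so no direction for the family held across these settings.

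The differences were small next to those of other genes. Their SD was 0.14, against 0.33 over all tested genes. A difference of more than 0.2 in either direction was seen in 7 members (8.43%), against 43.3% of tested genes. Those 7 were RPS3A, RPL26L1, RPL22L1 and RPL32 below 0 and RPL39L, RPL22 and RPL39 above 0, and the other 76 lay between -0.19 and 0.13. The groups did not overlap in 16 members, where they did not in 42.6% of tested genes. Of these, 5 were higher in shFTO cells, where 24.6% of tested genes were, and 11 were lower, where 18.1% of tested genes were. Among the 573 other genes that averaged 50 FPKM or more the median difference was -0.07, as in the family, while 38.2% of them differed by more than 0.2 and the SD was 0.37.

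**Figure D2:**
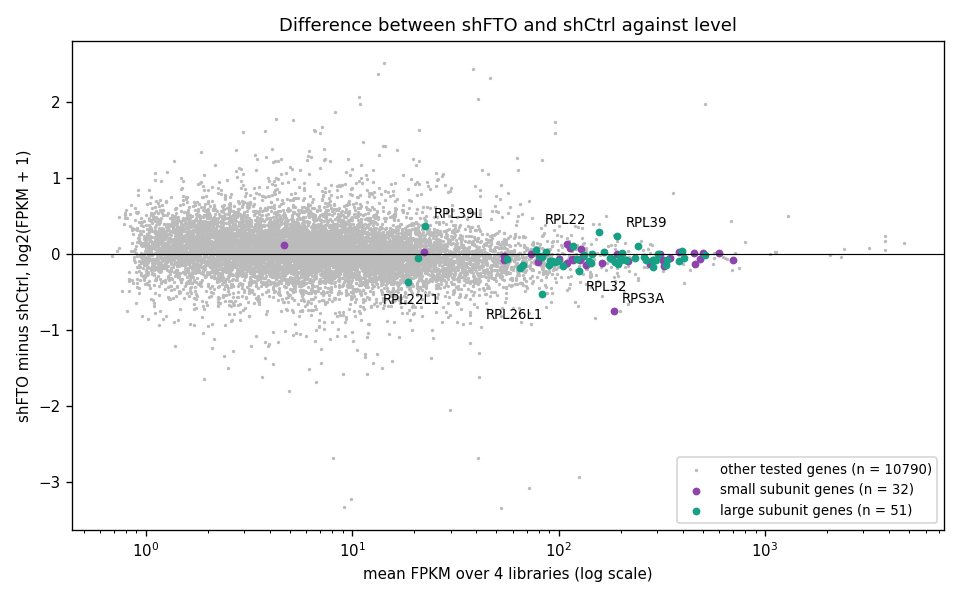
Difference between shFTO and shCtrl (log2(FPKM + 1)) against mean FPKM (log axis) for the tested genes in grey, small subunit genes in purple and large subunit genes in green. The ribosomal protein genes lie in a narrow band around a median of -0.07, and the 7 labelled genes differ by more than 0.2, with RPS3A lowest at -0.75 and RPL39L highest at 0.37.

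RPS3A, a small subunit protein (hg19 chromosome 4, 152020725 to 152025804), had the difference farthest from 0. It had 152 and 123 FPKM in shFTO cells, against 262 and 203 FPKM in shCtrl cells, and the groups did not overlap. The difference was -0.75 with a standard error of 0.19 (95% interval -1.21 to -0.29, limma adjusted p = 0.288). It was among the 2 members with more RNA in shCtrl replicate 1 than in shCtrl replicate 2. Without shFTO replicate 1 the difference was -0.90 with a limma adjusted p of 0.04, a setting in which 429 of the 10873 tested genes passed. The single shFTO library left there is assumed to vary like the shCtrl libraries, which alone give the spread. Without any other single library RPS3A did not pass. Of its 50-base stretches 83.4% occur in transcripts of 36 other genes in GENCODE 29, and 38 genes are named as its pseudogenes, so its value is uncertain where the counting could divide reads among copies. It also overlaps SH3D19 on the other strand, which had 7.82 and 5.58 FPKM in shFTO cells, against 5.79 and 5.18 FPKM in shCtrl cells.

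RPL26L1, the paralog of the large subunit protein RPL26 (hg19 chromosome 5, 172385732 to 172396774), had 66.3 and 69.7 FPKM in shFTO cells, against 93.4 and 104 FPKM in shCtrl cells. Both shFTO libraries were below both shCtrl libraries, with a difference of -0.53 (SE 0.13, 95% interval -0.86 to -0.20, limma adjusted p = 0.288). Leaving out single libraries moved the difference between -0.61 and -0.45. The parent RPL26 had 220 and 195 FPKM in shFTO cells, against 211 and 225 FPKM in shCtrl cells, and its groups overlapped. In the authors' deposited table RPL26L1 had p = 0.0243 and q = 0.515, the smallest q of the family, and RPS3A had p = 0.088 and q = 0.607 in the same table.

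RPL22, an RNA-binding protein of the large subunit, had 172 and 171 FPKM in shFTO cells, against 132 and 150 FPKM in shCtrl cells. It overlaps RNF207 on the other strand, which was at 0.597 and 0.630 FPKM in shFTO cells, against 0.518 and 0.475 FPKM in shCtrl cells. The groups of RPL22 did not overlap, with a difference of 0.28 (SE 0.13, limma adjusted p = 0.506). RPL22L1, which is known in mouse to be repressed by RPL22, had 18.7 and 13.8 FPKM in shFTO cells, against 19.4 and 22.9 FPKM in shCtrl cells. Its difference of -0.37 ran the other way (SE 0.19, limma adjusted p = 0.553) and lay between -0.58 and -0.16 when single libraries were left out. Neither gene passed the test.

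RPL39, a protein at the exit tunnel of the large subunit, had 216 and 199.6 FPKM in shFTO cells, against 158 and 195 FPKM in shCtrl cells (difference 0.24, SE 0.16, limma adjusted p = 0.617). Its paralog RPL39L had 24.7 and 26.3 FPKM in shFTO cells, against 17.5 and 21.8 FPKM in shCtrl cells (difference 0.37, SE 0.16, limma adjusted p = 0.477). Both were higher in each shFTO library than in each shCtrl library. Leaving out single libraries put RPL39 between 0.09 and 0.40 and RPL39L between 0.22 and 0.52. With quantile normalization RPL22, RPL39 and RPL39L had an unadjusted limma p under 0.05 and none of these passed after adjustment.

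Among the remaining members with the smallest p-values, RPL32 had 119 and 113 FPKM in shFTO cells, against 125 and 147 FPKM in shCtrl cells (difference -0.22, limma adjusted p = 0.62). RPL14 had 61.9 and 59.3 FPKM in shFTO cells, against 64.8 and 73.7 FPKM in shCtrl cells (difference -0.19). RPL19 had 284 and 254 FPKM in shFTO cells, against 293 and 313 FPKM in shCtrl cells (difference -0.17). In these 3 large subunit genes the groups were apart and none passed. Without single libraries the difference lay between -0.33 and -0.10 for RPL32, between -0.28 and -0.10 for RPL14 and between -0.25 and -0.09 for RPL19. After RPL22, RPL39 and RPL39L, the members above 0 with the smallest p-values were RPS19, RPL15 and RPL36AL. Their differences were only 0.13, 0.10 and 0.10 (limma adjusted p = 0.79, 0.82 and 0.83). RPL15 was also apart and higher, at 121 and 122 FPKM in shFTO cells, against 107 and 119.9 FPKM in shCtrl cells. RPL36AL had 269 and 233 FPKM in shFTO cells, against 220.4 and 246 FPKM in shCtrl cells, and the groups overlapped. RPS19, the gene most often mutated in Diamond-Blackfan anaemia, had 118 and 111 FPKM in shFTO cells, against 93.4 and 117 FPKM in shCtrl cells, and the groups overlapped. RPL31, RPL21, RPS13, RPL7 and RPSA were the other members separated downward, and RPS23 was the other separated upward. RPSA, also known as the laminin receptor, had 316 and 295 FPKM in shFTO cells, against 317 and 363 FPKM in shCtrl cells.

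The stalk proteins RPLP0, RPLP1 and RPLP2, which recruit translation factors to the large subunit, stayed within overlapping ranges. RPLP0 had 149 and 115 FPKM in shFTO cells, against 117 and 150.2 FPKM in shCtrl cells. RPLP1 had 218 and 175 FPKM in shFTO cells, against 179 and 220.03 FPKM in shCtrl cells, and RPLP2 had 235 and 180.4 FPKM in shFTO cells, against 192 and 244 FPKM in shCtrl cells. Their differences were -0.02, -0.02 and -0.07, smaller than the gap between replicates in every case. RPL5 and RPL11, which bind the small ribosomal RNA of the large subunit and can inhibit MDM2 when free, also overlapped. RPL5 had 343 and 305 FPKM in shFTO cells, against 328 and 359 FPKM in shCtrl cells, and RPL11 had 418 and 375 FPKM in shFTO cells, against 391 and 434 FPKM in shCtrl cells. Of 19 genes mutated in Diamond-Blackfan anaemia, all in this family, 6 were above 0 and 13 below with a median of -0.07. In the whole family 73.5% of genes were below 0, also with a median of -0.07, where 46.2% of tested genes were below 0. By limma 0 of these 19 had an adjusted p under 0.05 (0.0276% of tested genes). At an unadjusted limma p under 0.05 there were 0 (7.11% of tested genes higher and 3.74% lower).

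The FPKM ratio did not overlap between groups in 4 of the 6 paralog pairs, RPL22L1, RPL26L1, RPL39L and RPL36AL with their parents. For single genes the groups did not overlap in 42.6% of those tested, and no such share was taken over ratios of other gene pairs. The count is therefore not read as a result about the paralogs. RPL22L1 stood at 10.9% and 8.06% of RPL22 in shFTO cells, against 14.6% and 15.3% in shCtrl cells. RPL26L1 stood at 30.1% and 35.8% of RPL26 in shFTO cells, against 44.3% and 46.1% in shCtrl cells. RPL36AL, whose protein is nearly the same as that of RPL36A, stood at 259.9% and 280.2% of its parent in shFTO cells, against 231% and 235% in shCtrl cells. RPL39L stood at 11.4% and 13.2% of RPL39 in shFTO cells, against 11.1% and 11.1% in shCtrl cells. The RPL26 and RPL36A ratios are uncertain where reads could be divided among copies, since 60.8% of the 50-base stretches of RPL26, 52.9% of those of RPL26L1 and 80.3% of those of RPL36A occur in other genes. With 2 libraries a group the two-sided exact permutation p cannot go below 0.333, the value each of these ratios had. RPS27L stood at 0.759% and 0.855% of RPS27 in shFTO cells, against 0.572% and 0.926% in shCtrl cells, and RPL7L1 at 6.78% and 7.86% of RPL7 in shFTO cells, against 6.44% and 7.99% in shCtrl cells, and both overlapped.

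**Figure D3:**
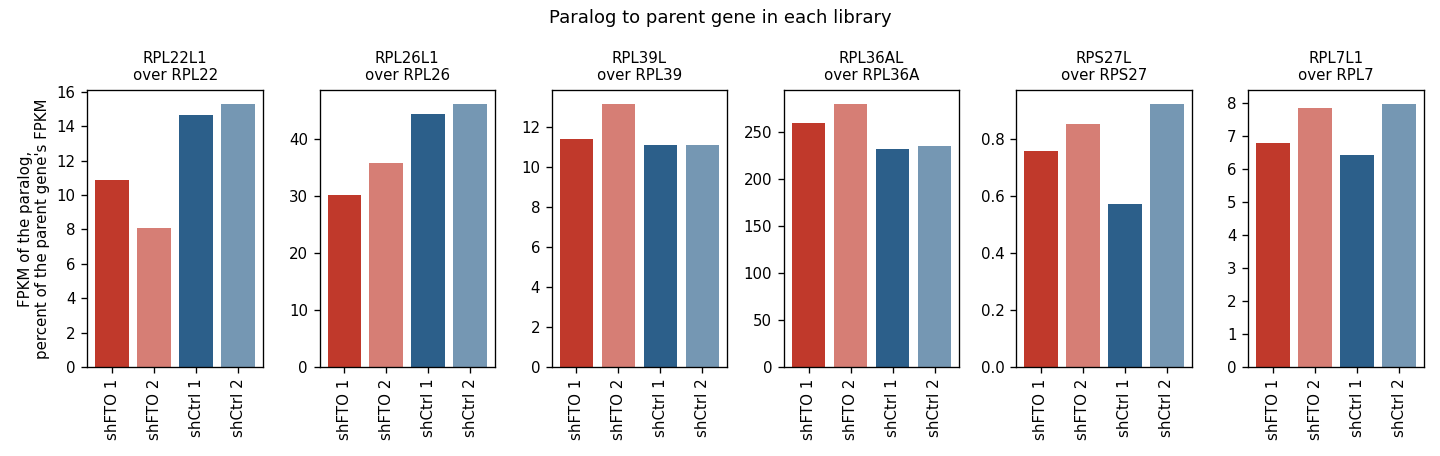
FPKM of each paralog as a percent of its parent gene, in each of the 4 libraries, with 1 panel per pair and each axis starting at 0. RPL22L1 over RPL22 lies at 10.9% and 8.06% in shFTO, against 14.6% and 15.3% in shCtrl, and the RPS27L and RPL7L1 panels overlap between groups.

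A pattern shared by most of the family ran between libraries of the same group. Levels were higher in shFTO replicate 1 than in shFTO replicate 2 in 75 of 83 genes, and higher in shCtrl replicate 2 than in shCtrl replicate 1 in 81 of 83. Both held in 73 members (88.0%), against 28.6% of tested genes. The median gap was 0.18 in shFTO and 0.20 in shCtrl. Taken without sign, the median gaps were 0.18 and 0.20 and the median group difference was 0.08. Over all tested genes these were 0.21, 0.15 and 0.17. A gap lies between single libraries and the group difference between means of 2, so their sizes are not like measures. Relative to each gene's own mean, the family's median was 0.07 and -0.13 in the shFTO libraries, against -0.08 and 0.13 in the shCtrl libraries. Over all tested genes the same medians were 0.01 and 0.03 in shFTO, against -0.01 and -0.01 in shCtrl.

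All 51 large subunit genes were higher in shCtrl replicate 2 than in shCtrl replicate 1. The exceptions in shCtrl were the small subunit genes RPS3A and RPS13, and in shFTO they included RPL23A, RPL15, RPS23, RPL26L1, RPL39L, RPL7L1 and RPS27L. RPL10A, a large subunit protein, had the widest gap in shFTO (0.54), at 363 and 249.9 FPKM in shFTO cells, against 277 and 326 FPKM in shCtrl cells. RPS2 had 455 and 323 FPKM in shFTO cells, against 343 and 414 FPKM in shCtrl cells. The groups overlapped in RPL10A and RPS2.

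**Figure D4:**
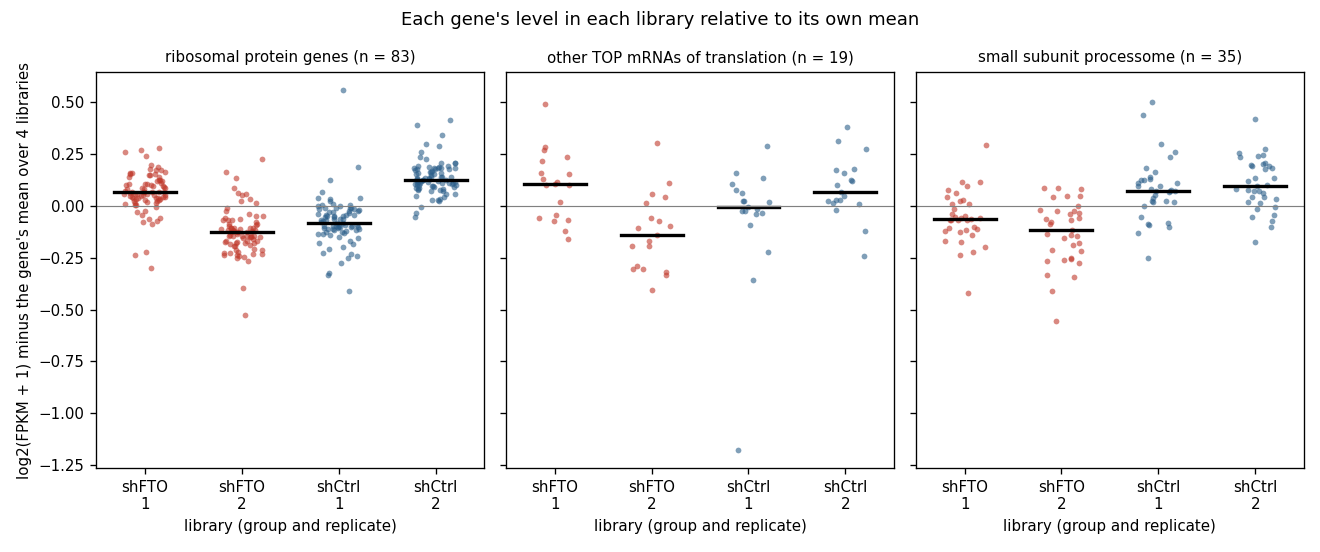
Level of each gene in each library relative to its own mean over the 4 libraries (log2(FPKM + 1)), for the 83 ribosomal protein genes, 19 other TOP messenger RNAs and 35 small subunit processome entries (EMG1 with both of its gene IDs), with bars for medians. The ribosomal protein medians are 0.07 and -0.13 in shFTO, against -0.08 and 0.13 in shCtrl. Those of the other TOP messenger RNAs are 0.11 and -0.14 in shFTO, against -0.004 and 0.07 in shCtrl. Those of the processome are -0.06 and -0.12 in shFTO, against 0.07 and 0.10 in shCtrl.

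Among other genes the gap between libraries moved with annotated transcript length, whereas the ribosomal protein genes had positive median gaps in every length range. Length was taken from a single annotated transcript per gene, which need not be the main one in these cells. For RPL37 it was 7686 bases and for RPL14 7072 bases. The long ranges may therefore hold genes whose main transcript is shorter, which was not tested. The median transcript of the family was 866 bases long, against 3042 bases over tested genes, with a GC content of 48.9% and 48.7%. Among other tested genes under 800 bases (n = 260) the median gap was 0.21 in shFTO and 0.27 in shCtrl, and among those of at least 5000 bases (n = 2448) it was -0.13 and -0.16. The 37 ribosomal protein genes under 800 bases had gaps of 0.20 and 0.23, and the 12 between 1500 and 3000 bases had 0.10 and 0.18, against 0.03 and 0.06 in other genes of that length. The 25 between 800 and 1500 bases had 0.24 and 0.19, against 0.09 and 0.18 in other genes. The 6 between 3000 and 5000 bases had 0.18 and 0.22, against -0.05 and -0.05 in other genes, and the 3 longer ones had 0.04 and 0.18. Across the 83 genes, which share these libraries, Spearman's rho between length and gap was -0.21 in shFTO and -0.09 in shCtrl. For GC content it was 0.29 and 0.39, and among other genes the median gaps were -0.10 and -0.13 under 42% GC and 0.08 and 0.18 at 58% GC or more. The 10 ribosomal protein genes at 58% or more had gaps of 0.29 and 0.29. Among 573 other genes of at least 50 FPKM, 47.5% had both gaps positive, with medians of 0.10 and 0.08. The part of length, GC content or RNA quality in the family's pattern was not tested.

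**Figure D5:**
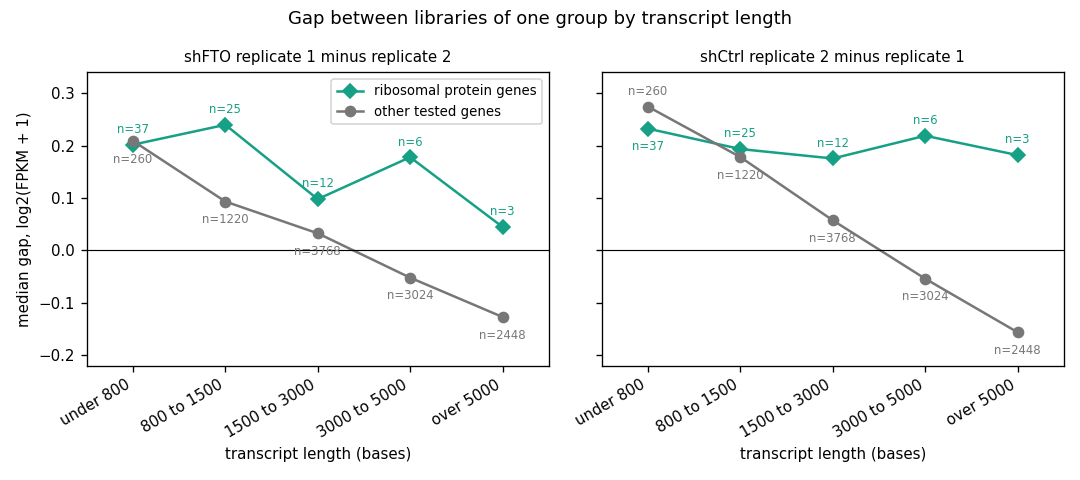
Median gap between libraries of one group (log2(FPKM + 1)) by transcript length, for ribosomal protein genes in green and other tested genes in grey, with the number of genes at each point. Length is that of a single annotated transcript per gene, which need not be the main one in these cells. Other genes under 800 bases had gaps of 0.21 and 0.27, close to the 0.20 and 0.23 of the 37 ribosomal protein genes of that length, whereas between 3000 and 5000 bases other genes had -0.05 and -0.05 and the 6 ribosomal protein genes 0.18 and 0.22.

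Medians were also taken for members with and without an annotated start with C and a run of at least 5 pyrimidines, with no test between them. This call depends on the exact annotated base, so a member counted as without may still have a TOP start. The 47 with such a start had a median difference of -0.08 and median gaps of 0.20 and 0.20, and the 20 without had -0.06, 0.19 and 0.19. The other tested genes with such a start had gaps of 0.00 and 0.01. The 19 other TOP messenger RNAs of translation, listed by name, shared part of the family's pattern. Of these, 15 were higher in shFTO replicate 1 than in shFTO replicate 2, where 48.3% of tested genes were. In shCtrl, 12 were higher in replicate 2 than in replicate 1, where 49.1% of tested genes were. Shared sequence was common in the family, with a median of 24.3% of a gene's 50-base stretches also in other genes and over 50% in 19 members, and the median difference was -0.05 over the 64 members at or below that share and -0.10 over the 19 above it.

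None of the genes in the other lists of the ribosome pathway passed at a limma adjusted p under 0.05, so their values are given as counts and medians. The 19 other TOP messenger RNAs of translation had 4 differences above 0 and 15 below, where 46.2% of tested genes were below 0. Their median of -0.05 lay between -0.17 and 0.10 when single libraries were left out, so its sign was not stable. BTF3, a nascent chain factor, had 245 and 192 FPKM in shFTO cells, against 265 and 273 FPKM in shCtrl cells (difference -0.31, between -0.49 and -0.13 without single libraries). The 14 tested regulators of mTORC1 and TOP translation had 6 above 0 and 8 below, with a median of -0.03 that lay between -0.06 and 0.03 without single libraries. Among these, RPS6KB1, the S6 kinase that phosphorylates the ribosomal protein RPS6, had 3.69 and 7.95 FPKM in shFTO cells, against 8.21 and 7.22 FPKM in shCtrl cells, and overlapped.

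Genes that assemble ribosomes were mostly below 0. Tested genes outside the ribosomal protein family had a median difference of 0.02 at 5 to 20 FPKM and -0.06 at 20 to 50 FPKM. The median level of the small subunit processome was 23.1 FPKM. In the small subunit processome, 32 of 35 entries were below 0 with a median of -0.16, where 46.2% of tested genes were below 0. EMG1 entered with both of its gene IDs, and both were below 0. The groups were apart downward in 18 (18.1% of tested genes) and upward in 1 (24.6% of tested genes). At an unadjusted limma p under 0.05, 3 were lower (3.74% of tested genes) and 0 higher (7.11% of tested genes). HEATR1, a processome scaffold, had 17.4 and 12.8 FPKM in shFTO cells, against 27.8 and 22.2 FPKM in shCtrl cells (difference -0.70, SE 0.20, limma adjusted p = 0.342). WDR36 had 5.04 and 4.36 FPKM in shFTO cells, against 8.67 and 7.24 FPKM in shCtrl cells (difference -0.65, SE 0.17, limma adjusted p = 0.302). The median was -0.15 with quantile and -0.20 with median-ratio scaling. The 10 genes of late small subunit maturation had a median of -0.22 with 8 below 0, and the median lay between -0.30 and -0.13 without single libraries. PNO1 among them had 36.1 and 31.5 FPKM in shFTO cells, against 44.2 and 44.5 FPKM in shCtrl cells.

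For the large subunit, 29 of 39 assembly genes were below 0 with a median of -0.11, where 46.2% of tested genes were below 0. At an unadjusted limma p under 0.05, 4 were lower (3.74% of tested genes) and 1 higher (7.11% of tested genes). The higher gene was FTSJ3, a methyltransferase of ribosomal RNA processing, with 21.0 and 19.9 FPKM in shFTO cells, against 10.9 and 11.3 FPKM in shCtrl cells (difference 0.83, SE 0.14, limma adjusted p = 0.163). MAK16 had 17.4 and 19.7 FPKM in shFTO cells, against 28.1 and 26.7 FPKM in shCtrl cells (difference -0.54, limma adjusted p = 0.302). Of the 13 chaperones and importins of ribosomal proteins, 12 were below 0 with a median of -0.17. Nucleophosmin (NPM1) had 383 and 323 FPKM in shFTO cells, against 453 and 469 FPKM in shCtrl cells (difference -0.39, limma adjusted p = 0.433). The 15 RNA polymerase I genes had 10 below 0 and a median of -0.07, which lay between -0.13 and -0.03 without single libraries, and the 10 ribosome quality control genes had 5 above and 5 below. Whether these lists differ from the ribosomal protein genes was not tested.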

How the data were processed

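The authors deposited FPKM per library for 11972 protein-coding genes, with a log2 fold change, a linear fold change (ratio), a p-value and a q-value per gene, per the file headers; the authors' group columns are on a log2 scale. Tools listed without roles in the submitters' processing notes are HISAT2 2.0.5, STAR 2.5.2b, StringTie and cutadapt, and the build is hg19; whether counting used strand was not given in those sources. Samples were grouped by title into shFTO and shCtrl, 2 libraries each.

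FPKM were tested as log2(FPKM + 1), a pseudocount of 1, with limma 3.58.1 in R 4.3.3 (mean-variance trend, no block). Genes entered the test when 2 or more libraries reached 1 FPKM, which 10873 did, with Benjamini-Hochberg adjustment over all of them and a threshold of 0.05. Log2 differences understate the change of low genes. The procedure was tested on simulated data. Depth is unknown, so no counting interval is given. The labels do not say that replicate numbers mark a shared culture.

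Members and lists were chosen with earlier results of these data known. Members named are the 6 smallest p-values in each direction, the 3 highest and 3 lowest levels, paralogs with their parents, the stalk, RPL5, RPL11 and RPSA, and of other lists up to 3 genes by smallest p; RPL10A, RPS2, RPS29 and further exceptions were named after their values were seen. Transcript lengths, GC content and shared 50-base stretches were taken for a single protein-coding transcript per gene in GENCODE 29, and starts from RefSeq (GRCh38.p14). Alternatives were a pseudocount of 0.1, other filters, quantile and median-ratio scaling, no trend, a replicate block and leaving out each library. Some genes that enter the counts are not reported by name here.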

Additional observations from a re-analysis of the deposited data

How the results depend on the processing

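Over all tested genes limma called 3 at an adjusted p under 0.05. It called 0 with a pseudocount of 0.1, 1 each without a filter, with median-ratio scaling and without the trend, 15 with the replicate block, and between 0 and 429 when single libraries were left out. A block with crossed replicate numbers, chosen after seeing the data because same-numbered deviations correlated at -0.19, called 0. Unadjusted p under 0.05 was reached by 1180 genes as reported, 1167 with the pseudocount of 0.1, 1430 with the crossed block, and 509 and 584 without shCtrl replicate 1 or 2, where 0 passed. Among the ribosomal protein genes 0 to 1 passed when single libraries were left out, the 1 being RPS3A without shFTO replicate 1. Their median difference lay between -0.17 and 0.06 over those settings, was -0.07 without the paralogs and -0.05 without members that share over 50% of their sequence. When single libraries were left out, the difference ranged between -0.035 and 0.37 for HUWE1, between -0.22 and 0.11 for RPL7L1, between -0.025 and 0.29 for RPS19, between -0.23 and 0.47 for RPS27L, and between -0.89 and 0.040 for RPS6KB1, so these changed sign; the cause was not tested. With 2 libraries a group and no counts, small differences could not be resolved.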

Other observations

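EEF1G, an elongation factor subunit and TOP messenger RNA, had 459.7 and 403 FPKM in shFTO cells, against 143 and 425 FPKM in shCtrl cells, with shCtrl replicate 1 far below the other libraries and shCtrl replicate 2 between the shFTO libraries (difference 0.80, limma adjusted p = 0.594, between 0.02 and 1.58 without single libraries). FAU, a ribosomal fusion precursor that lies outside the symbol rule, had 84.5 and 68.8 FPKM in shFTO cells, against 63.3 and 87.6 FPKM in shCtrl cells.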
